A study of Mus musculus with 2 samples.

Results

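Glycolysis and hypoxia genes were followed through the cell types of the mouse yolk sac in a wild-type (WT) library and a Baf155 CKO library. The list held 31 genes, chosen by symbol, and all 31 were found in the gene table of both libraries, which held 33456 genes. Each genotype was represented by 1 droplet-based 5′ single-cell RNA library of the B6 strain, in which yolk sacs of stages E9.5 and E10.5 were mixed, digested with 0.25% collagenase and sorted for live cells without the erythroid surface antigen Ter119. The CKO label names the gene for Baf155 (Smarcc1), a core subunit of the SWI/SNF chromatin remodelling complex. The Cre driver, the deleted exon and the embryo count are missing from the labels as used here, and no label gives a cell's stage. The labels speak of nuclei although the protocol describes live cells.

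Glycolysis converts glucose to pyruvate. Glucose enters through transporters, is trapped by hexokinases, is split and oxidised by a chain of enzymes, and in many embryonic and proliferating cells leaves as lactate. When oxygen is low, prolyl hydroxylases stop marking the HIF alpha subunits for destruction, and the stabilised subunits bind short DNA motifs near their target genes, among them most glycolytic enzymes, glucose and lactate transporters, angiogenic factors, mitophagy receptors and the hydroxylases themselves. The yolk sac is the site of the earliest blood formation and the early exchange surface of the embryo, and it forms before the embryo has a working placental circulation.

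The WT library held 815 barcodes with 24538853 unique molecular identifiers (UMIs, counts of captured RNA molecules) and the CKO library 865 barcodes with 27314411. The median depth was 27249 and 27882 UMIs per barcode, and 1 barcode occurred in both. After removal of damaged cells and doublets, 784 WT and 841 CKO cells remained. The targeted gene Smarcc1 was measured at 94.9 CPM (UMIs of the gene scaled to a fixed total) in WT cells and 24.0 CPM in CKO cells. Cells were placed in classes by the number of marker genes detected, which gave 177 WT and 153 CKO progenitor-like cells, 171 and 252 erythroid-like, 13 and 53 megakaryocyte-like, 49 and 15 macrophage-like, 57 and 48 endothelium-like, 245 and 286 stromal-like, and 30 and 3 visceral endoderm-like cells. No class had a marker of another class among its 10 leading genes. Globins, which only red cells make, took 0.0439% of the UMIs of progenitor-like cells in WT and 0.244% in CKO, and 0.0338% and 0.237% in stromal-like cells. The part of this RNA in the ratios below was not tested beyond leaving globin, mitochondrial and ribosomal protein genes together out of the totals.

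Levels are UMIs summed over the cells of a class, in the standard CPM scaling to the UMI total of that class. Ratios are CKO over WT with exact 95% intervals that cover counting error only. With 1 library per genotype the difference has no replicate check, no test was possible, and the spread between embryos is unknown. A gene counted as measured when it had at least 20 UMIs over both libraries in a class, and as higher or lower when its ratio was at least 1.5-fold from 1 with the interval outside 1. The stromal-like, endothelium-like, progenitor-like and erythroid-like classes had at least 20 cells in each library and were compared. The other classes are given by level alone.

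In WT cells the genes were unevenly spread over the 7 classes. Erythroid-like cells had the lowest level of 17 of the 31 genes (Epas1, at 0 UMIs in 4 classes, not counted), macrophage-like cells the highest level of 11 and stromal-like cells the highest of 7. Bpgm, whose enzyme makes the 2,3-bisphosphoglycerate that lowers the oxygen affinity of haemoglobin, was the exception and was highest in erythroid-like cells at 211 CPM against 8.84 CPM to 23.9 CPM in the other classes. Globins took 26.8% of the UMIs of WT erythroid-like cells, which lowers the CPM of every other gene there. The 10 enzymes from Gpi1 to Ldha without Pgk1 summed to 3740 CPM in these cells and to 5109 CPM outside globins. In WT endothelium-like cells they summed to 5498 and 5501 CPM. The count of 17 was not repeated outside globins. Slc2a1, the widespread glucose transporter GLUT1, stood at 379 CPM in stromal-like and 320 CPM in visceral endoderm-like cells and at 31.3 CPM to 83.8 CPM elsewhere. Slc2a3, the high-affinity transporter GLUT3, stood at 850 CPM in visceral endoderm-like cells and at 7.36 CPM to 42.2 CPM elsewhere.

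The HIF alpha genes were distributed differently. Epas1, which encodes HIF-2α, had no UMI in WT progenitor-like, erythroid-like, megakaryocyte-like or macrophage-like cells and stood at 63.4 CPM in endothelium-like, 12.5 CPM in visceral endoderm-like and 11.1 CPM in stromal-like cells. In the progenitor-like class a count of 0 allows, at 3 counts over the class, a level of up to 0.437 CPM for WT and 0.545 CPM for CKO. Hif1a, which encodes HIF-1α, was present in every class, from 10.2 CPM in erythroid-like to 53.5 CPM in visceral endoderm-like cells. The hydroxylase gene Egln3 was highest in progenitor-like cells at 48.4 CPM and lowest in erythroid-like cells at 1.72 CPM, while its relative Egln1 was highest in stromal-like cells at 18.4 CPM. Among the 4 compared classes, 20 of the 31 genes had the same highest class in both libraries.

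**Figure D1:**
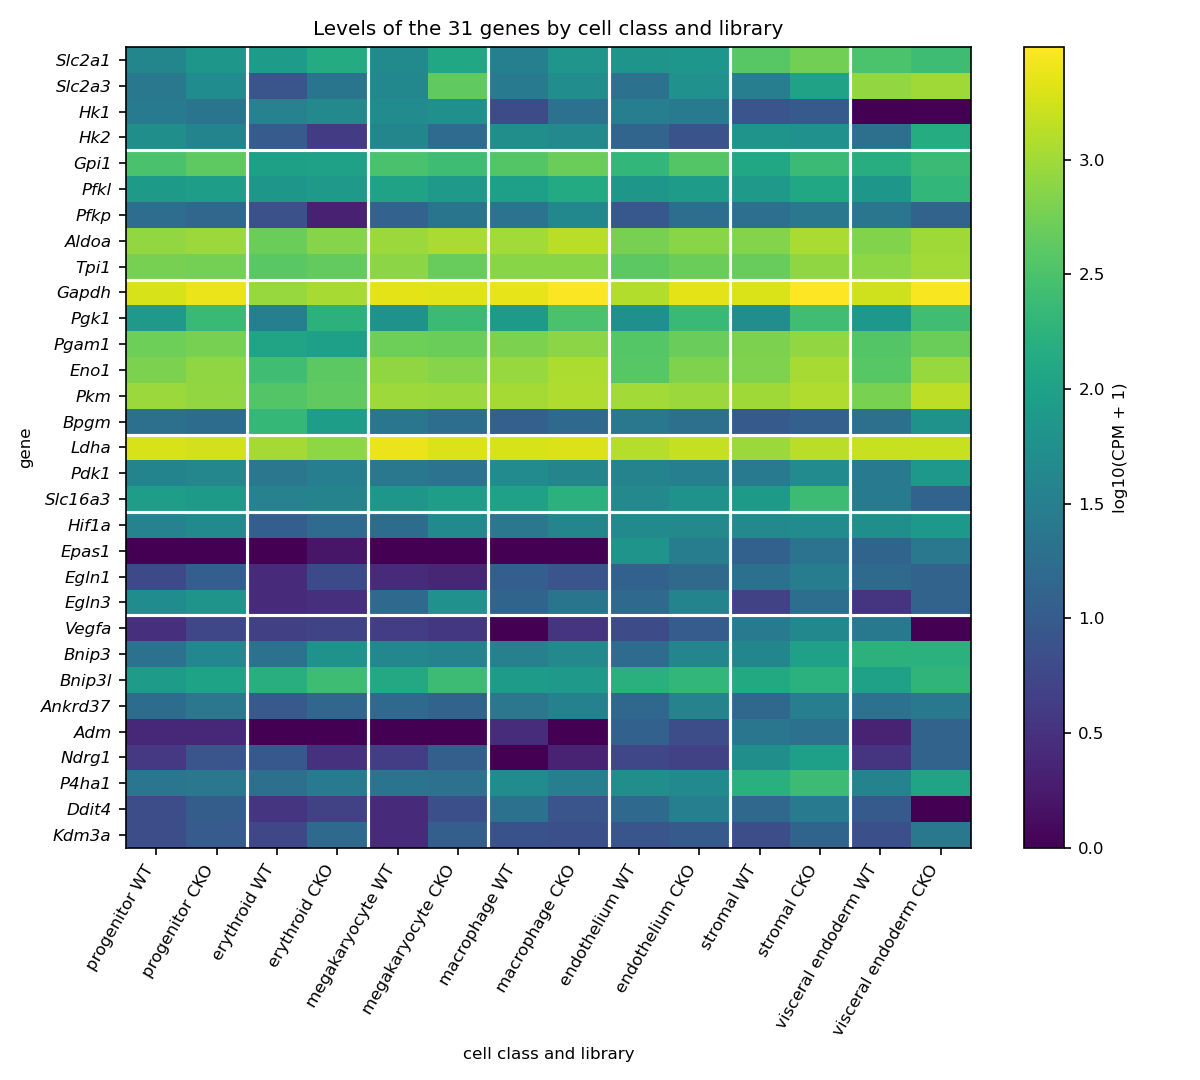
Levels of the 31 genes (rows, grouped by role) in 7 cell classes of the WT and CKO libraries (columns), as log10(CPM + 1) on a colour scale. Epas1 is dark in all blood classes, Slc2a3 is bright in visceral endoderm-like cells at 850 CPM in WT, and Bpgm is brightest in erythroid-like cells.

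Most of the list was higher in CKO stromal-like cells. There 19 of 31 genes were higher and none lower, against a background of 11.2% of 11197 measured genes higher and 8.42% lower, and the median log2 ratio of the list was 0.65 against −0.0030 for all genes. In endothelium-like cells 9 of 30 measured genes were higher (background 5.81%) and Epas1 was lower (background 11.6%), with a median of 0.32 against −0.067. In erythroid-like cells 11 of 29 were higher (background 11.8%) and 4 lower (background 10.8%), with a median of 0.29 against 0.012. In progenitor-like cells 9 of 29 were higher (background 15.0%) and none lower (background 8.67%), with a median of 0.35 against 0.022. Markers of other classes in progenitor-like cells were higher in CKO, at 316 and 604 CPM for endothelium, 608 and 961 CPM for megakaryocytes and 26.7 and 104 CPM for stroma, and their part in these ratios was not tested.

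Left without Pgk1, whose CKO counts may include a targeting cassette, the counts were 18 of 30 in stromal-like cells, 8 of 29 in endothelium-like cells, 10 of 28 in erythroid-like cells and 8 of 28 in progenitor-like cells. The medians were then 0.65, 0.31, 0.28 and 0.35. The summed UMIs of the list were 1.55-fold as abundant in CKO as in WT stromal-like cells (1.53 to 1.56), 1.37-fold in endothelium-like (1.33 to 1.41), 1.16-fold in erythroid-like (1.14 to 1.17) and 1.13-fold in progenitor-like cells (1.11 to 1.14). Without Pgk1 these ratios were 1.52, 1.35, 1.12 and 1.11.

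Slc2a3, Pgk1 and Bnip3 were higher in all 4 classes, and Eno1, Egln1, Ankrd37, Ddit4 and Kdm3a in 3. In all, 23 genes were higher in at least 1 class and 5 were lower in at least 1, of which Ndrg1 and Epas1 were higher in another. In single classes 5.81% to 15.0% of all measured genes were higher and 8.42% to 11.6% lower. The share of all genes called in at least 1 of the 4 classes is larger and was not computed, so these counts over classes have no background. Hk1, Pgam1, Pkm, Ldha and Adm were neither higher nor lower in any class. Adm and Epas1 were not measured in progenitor-like and erythroid-like cells, nor Ndrg1 in endothelium-like cells, so 28 genes were measured in all 4 classes.

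**Figure D2:**
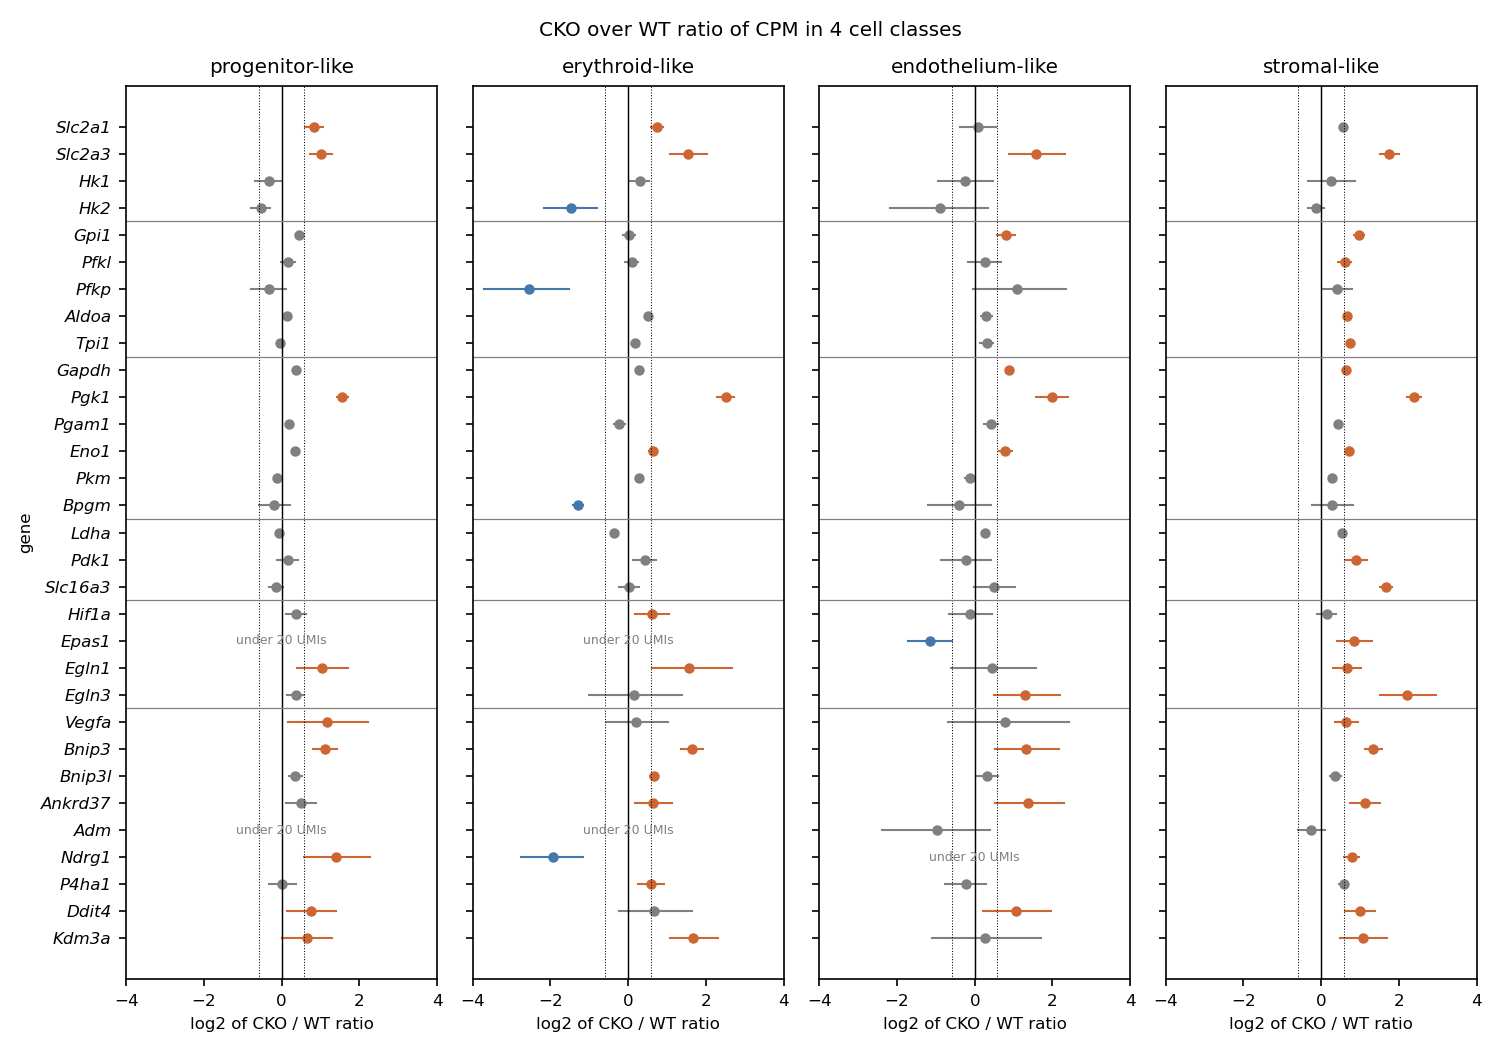
Log2 of the CKO over WT ratio of each gene (rows, grouped by role) in 4 cell classes, with exact 95% intervals for counting error as lines and 1.5-fold as dotted lines. Orange marks genes that were higher, blue genes that were lower and grey the rest. Nearly all stromal-like points lie to the right of 0, and the lower genes are in the erythroid-like class (Hk2, Pfkp, Bpgm and Ndrg1) and the endothelium-like class (Epas1).

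The promoters of the list were searched for the HIF core motif, written here as ACGTG or GCGTG on either strand (CACGT or CACGC on the other), in the 250 bases before 1 RefSeq start of each gene (GRCm38.p6). For the list this was the RefSeq start nearest the annotated start of the gene, and for the promoters of all genes the first listed start. Hk1, Aldoa, Eno1, Pkm, Ldha, Pdk1, Vegfa and Kdm3a had more than 1 listed start, and the part of this difference in the shares below was not tested. Promoters were found for 27 of the 31 genes; Slc2a3, Bnip3l, Ndrg1 and Epas1 had no entry. The motif was in 20 of the 27 (74.1%), against 38.6% of 27025 promoters of the same length. The listed promoters were richer in G and C (median 62.8% against 52.0%), and of 6686 promoters in their middle range of G and C (56.2% to 67.4%) 56.8% held the motif. The ACGTG form alone was in 48.1% of the listed promoters and 16.6% of all. A match describes letters only and is not a binding site.

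The promoters of 4 genes with several matches are printed to show how the motif lies in genes of different response, 5′ to 3′ on the gene's strand and ending at the base before the start, with the motif letters in capitals. Pgk1 (chrX:106186850-106187099, plus strand) and Bnip3 (chr7:138909507-138909756, minus strand) were higher in all 4 classes, Ankrd37 (chr8:45999851-46000100, minus strand) in 3 and Ldha (chr7:46845554-46845803, plus strand) in none.
Pgk1: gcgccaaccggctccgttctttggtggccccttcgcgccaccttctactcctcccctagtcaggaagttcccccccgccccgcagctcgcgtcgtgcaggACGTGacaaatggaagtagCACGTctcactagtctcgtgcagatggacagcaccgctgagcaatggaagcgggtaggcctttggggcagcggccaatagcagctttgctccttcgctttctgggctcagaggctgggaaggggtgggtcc
Bnip3: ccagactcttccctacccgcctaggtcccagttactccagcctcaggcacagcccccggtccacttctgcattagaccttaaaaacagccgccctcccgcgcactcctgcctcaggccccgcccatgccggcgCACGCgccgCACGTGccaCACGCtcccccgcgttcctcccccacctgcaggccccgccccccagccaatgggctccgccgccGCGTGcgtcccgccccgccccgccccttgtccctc
Ankrd37: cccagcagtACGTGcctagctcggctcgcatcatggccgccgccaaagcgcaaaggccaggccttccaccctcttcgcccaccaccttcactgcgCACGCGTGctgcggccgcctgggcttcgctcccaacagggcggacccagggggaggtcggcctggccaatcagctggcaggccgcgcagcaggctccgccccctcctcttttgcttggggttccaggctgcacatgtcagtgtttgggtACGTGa
Ldha: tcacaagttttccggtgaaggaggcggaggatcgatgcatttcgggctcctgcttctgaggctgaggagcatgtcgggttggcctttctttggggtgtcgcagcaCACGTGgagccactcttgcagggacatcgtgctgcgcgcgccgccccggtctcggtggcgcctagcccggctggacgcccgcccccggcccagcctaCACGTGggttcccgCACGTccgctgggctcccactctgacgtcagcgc
The Pgk1 promoter holds 2 matches, that of Ankrd37 4 and those of Bnip3 and Ldha 5 each, where CACGTG counts on both strands.

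Of the genes that bring glucose in, Slc2a3 was higher in all 4 classes, Slc2a1 in 2 and neither hexokinase in any. Slc2a3 was at 24.1 CPM (WT) against 48.5 CPM (CKO) in progenitor-like cells, at 7.36 and 21.5 CPM in erythroid-like cells, at 19.3 and 57.6 CPM in endothelium-like cells and at 30.1 and 102 CPM in stromal-like cells. CKO was above WT in each class, by 2.02-fold (1.66 to 2.46), 2.92-fold (2.12 to 4.10), 2.98-fold (1.84 to 5.05) and 3.38-fold (2.85 to 4.01). Slc2a1 was 1.79-fold higher in progenitor-like cells (39.1 against 69.8 CPM; 1.52 to 2.10) and 1.67-fold in erythroid-like cells (83.8 against 140 CPM; 1.51 to 1.85). Its ratio was 1.47 in stromal-like cells (379 against 558 CPM; 1.40 to 1.55), just under the 1.5-fold limit, and 1.06 in endothelium-like cells (0.773 to 1.45).

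Hk1, the ubiquitous hexokinase, had ratios between 0.795 and 1.22 in the 4 classes. Hk2, the inducible hexokinase and a known HIF target, was 2.78-fold lower in CKO erythroid-like cells (8.92 against 3.21 CPM; 1.76 to 4.49). Its ratio was below 1 in the other classes too, at 0.687 in progenitor-like (0.576 to 0.818), 0.535 in endothelium-like (0.220 to 1.27) and 0.912 in stromal-like cells (0.790 to 1.05). In the Xist-positive cells described below, the Slc2a3 ratio turned to 0.909 in progenitor-like and 0.673 in endothelium-like cells.

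Most upper glycolytic enzymes were higher in CKO stromal-like cells. Gpi1 (glucose-6-phosphate isomerase) stood at 122 CPM (WT) against 240 CPM (CKO), Tpi1 (triosephosphate isomerase) at 479 and 806, Aldoa (aldolase A) at 699 and 1104 and Pfkl (liver-type phosphofructokinase) at 77.5 and 118. Their ratios were 1.97 (1.80 to 2.15), 1.68 (1.61 to 1.76), 1.58 (1.52 to 1.64) and 1.53 (1.36 to 1.72). So 4 of the 5 members of this group were higher (background 11.2%), and Pfkp (platelet-type phosphofructokinase) had a ratio of 1.33 (1.03 to 1.72). In endothelium-like cells only Gpi1 of the 5 was higher (background 5.81%), at 204 against 354 CPM (1.74-fold, 1.48 to 2.04). In progenitor-like cells none was (background 15.0%), with ratios from 0.794 (Pfkp) to 1.37 (Gpi1). In erythroid-like cells Pfkp was 5.86-fold lower in CKO (2.88 to 13.1), at 6.26 against 1.07 CPM. This Pfkp ratio rests on 40 WT and 10 CKO UMIs. Aldoa had a ratio of 1.43 (1.37 to 1.49) in erythroid-like cells.

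In the lower part of the pathway Gapdh, the enzyme that oxidises glyceraldehyde-3-phosphate, was at 1982 CPM (WT) against 3097 CPM (CKO) in stromal-like cells and at 1211 and 2245 CPM in endothelium-like cells. It was 1.56-fold (1.53 to 1.60) and 1.85-fold (1.74 to 1.98) higher there, with ratios of 1.28 and 1.21 in progenitor-like and erythroid-like cells. Eno1 (enolase) was 1.65-fold higher in stromal-like (660 against 1092 CPM), 1.72-fold in endothelium-like (379 against 651 CPM) and 1.55-fold in erythroid-like cells (263 against 407 CPM), and its ratio in progenitor-like cells was 1.26. Eno1 shares sequence with the near copy Eno1b, which held 284 UMIs in WT and 749 in CKO, and Gapdh has many processed copies, so reads of both may be split. Pgam1 (phosphoglycerate mutase) had ratios from 0.852 to 1.35, and Pkm (the M-type pyruvate kinase) from 0.912 to 1.21.

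Pgk1, which encodes phosphoglycerate kinase and lies on chrX:106187100-106203699, had the largest ratio of the list in each of the 4 classes. It was at 77.6 CPM (WT) against 229 CPM (CKO) in progenitor-like cells, at 30.8 and 175 CPM in erythroid-like cells, at 56.0 and 222 CPM in endothelium-like cells and at 49.7 and 261 CPM in stromal-like cells. The ratios were 2.96 (2.67 to 3.28), 5.69 (4.90 to 6.63), 3.95 (3.01 to 5.28) and 5.25 (4.63 to 5.97). In all 7 classes the CKO level lay above the WT level, by 145 CPM to 231 CPM.

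Pgk1 was above its WT level in CKO cells with and without Smarcc1 RNA. In CKO stromal-like cells Pgk1 stood at 246 CPM in cells without a Smarcc1 UMI and at 283 CPM in cells with at least 1; in progenitor-like cells these values were 238 and 222 CPM and in erythroid-like cells 174 and 180 CPM. Cells with Xist RNA and cells with Y-linked RNA both showed it, at 193 and 332 CPM in CKO stromal-like cells against 43.5 and 56.1 CPM in WT. Selection cassettes driven by the Pgk1 promoter are common in targeted alleles, and 5′ reads cannot be told apart here from those of the native gene, so whether the excess is native transcript was not tested.

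**Figure D3:**
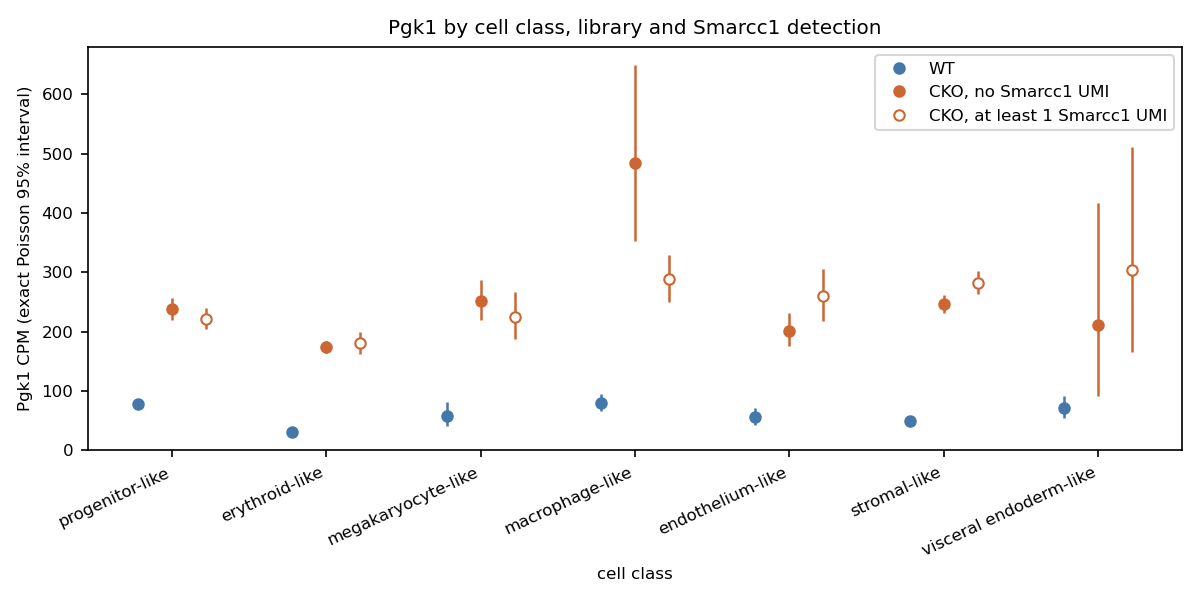
Pgk1 level (CPM, with exact Poisson 95% intervals) in 7 cell classes, in WT cells (blue), CKO cells without a Smarcc1 UMI (filled orange) and CKO cells with at least 1 (open orange). CKO points lie above the WT point of the same class throughout, whether or not Smarcc1 was detected.

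Bpgm, the red cell enzyme, was lower in CKO erythroid-like cells. Its level was 211 CPM (WT) against 85.8 CPM (CKO), a 2.46-fold difference (2.25 to 2.69), and it was of the same direction in Xist-positive (0.435) and Y-positive cells (0.356). In the other 3 classes its ratio lay between 0.760 and 1.22. Progenitor markers in erythroid-like cells summed to 134 CPM (WT) against 40.0 CPM (CKO), and erythroid markers other than globins to 2743 and 3702 CPM. Bpgm, Hk2, Pfkp and Ndrg1 were the 4 lower genes of this class, and the part of this shift in markers in their ratios was not tested. Hk2 rested on 57 WT and 30 CKO UMIs and Ndrg1 on 52 and 20.

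Of 3 genes of pyruvate and lactate handling 2 were higher in stromal-like cells (background 11.2%) and none in the other classes (background 5.81% to 15.0%). Slc16a3, which encodes the lactate exporter MCT4, was at 78.5 CPM (WT) against 248 CPM (CKO) in stromal-like cells, a 3.15-fold difference (2.84 to 3.51). Its ratio was 0.903 in progenitor-like (0.795 to 1.02), 1.02 in erythroid-like (0.855 to 1.21) and 1.41 in endothelium-like cells (0.982 to 2.04). Pdk1, the kinase that shuts pyruvate dehydrogenase, was 1.85-fold higher in stromal-like cells (25.8 against 47.8 CPM; 1.52 to 2.26) and between 0.856 and 1.34 elsewhere. Ldha (lactate dehydrogenase A) had ratios of 1.46 in stromal-like, 1.21 in endothelium-like, 0.950 in progenitor-like and 0.773 in erythroid-like cells.

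Of the HIF alpha genes, Hif1a was higher in 1 class, and Epas1 was lower in 1 class and higher in another. Hif1a had ratios of 1.10 in stromal-like (43.5 against 48.0 CPM; 0.933 to 1.30), 0.926 in endothelium-like (0.634 to 1.36) and 1.29 in progenitor-like cells (1.08 to 1.55), and was 1.53-fold higher in erythroid-like cells (10.2 against 15.6 CPM; 1.14 to 2.09). That ratio was 1.01 in Y-positive cells (0.557 to 1.82) and 2.18 in cells thinned to 10000 UMIs. Epas1 was 2.20-fold lower in CKO endothelium-like cells (63.4 against 28.8 CPM; 1.49 to 3.27), where it is highest, and 1.81-fold higher in stromal-like cells (11.1 against 20.1 CPM; 1.34 to 2.47). Endothelial markers of this class summed to 4683 CPM in WT and 3622 CPM in CKO and stromal markers to 59.7 and 156 CPM, and their part was not tested. In endothelium-like cells the Epas1 ratio was 0.952 in Xist-positive and 0.307 in Y-positive cells. The WT endothelium-like cells were shallower, at a median of 15441 UMIs against 32474 in CKO, and the part of depth in the ratios of this class was not tested beyond thinning each cell to 10000 UMIs, which gave an Epas1 ratio of 0.299.

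The HIF hydroxylases Egln1 (PHD2) and Egln3 (PHD3), which mark HIF alpha subunits for destruction and are themselves induced by HIF, were higher in several classes. Egln3 was at 3.71 CPM (WT) against 17.1 CPM (CKO) in stromal-like cells, a 4.59-fold difference (2.88 to 7.69), and was 2.47-fold higher in endothelium-like cells (14.7 against 36.3 CPM; 1.40 to 4.60). The endothelial ratio was 1.21 in Y-positive cells (0.569 to 2.70) and 11.6 in Xist-positive cells, where WT had 1 UMI (1.88 to 480.4). In progenitor-like cells, where it is highest, its ratio was 1.29 (48.4 against 62.3 CPM). Egln1 was 2.05-fold higher in progenitor-like (4.96 against 10.2 CPM), 2.98-fold in erythroid-like (1.72 against 5.13 CPM) and 1.58-fold in stromal-like cells (18.4 against 29.1 CPM), with a ratio of 1.17 in Xist-positive progenitor-like cells (0.430 to 2.94).

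Among the other hypoxia genes Bnip3, a mitophagy receptor, was higher in all 4 classes. It was at 19.4 CPM (WT) against 41.8 CPM (CKO) in progenitor-like cells, at 19.3 and 59.9 CPM in erythroid-like cells, at 15.6 and 38.8 CPM in endothelium-like cells and at 38.6 and 97.9 CPM in stromal-like cells. The ratios were 2.16 (1.73 to 2.69), 3.11 (2.55 to 3.81), 2.48 (1.43 to 4.53) and 2.54 (2.18 to 2.97). Its relative Bnip3l, which clears mitochondria from maturing red cells, was higher in erythroid-like cells alone of the 4 classes (158 against 251 CPM, 1.59-fold, 1.47 to 1.71), with ratios from 1.25 to 1.29 in the others. In Xist-positive cells the Bnip3 ratio was 0.878 in stromal-like, 1.08 in progenitor-like (0.690 to 1.66) and 0.423 in endothelium-like cells (10 against 8 UMIs), and it was higher there in erythroid-like cells alone (1.97).

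Ankrd37, a small ankyrin-repeat protein, was 2.18-fold higher in stromal-like cells (14.0 against 30.5 CPM), 2.59-fold in endothelium-like and 1.56-fold in erythroid-like cells. Kdm3a, a histone H3K9 demethylase, was 3.18-fold higher in erythroid-like (4.54 against 14.4 CPM), 2.11-fold in stromal-like and 1.57-fold in progenitor-like cells, where its ratio was 0.732 in Xist-positive cells. Ddit4 (REDD1), an inhibitor of mTORC1, was 1.99-fold higher in stromal-like, 2.09-fold in endothelium-like and 1.69-fold in progenitor-like cells. In endothelium-like cells the Ankrd37 ratio was 0.463 in Xist-positive cells (8 against 7 UMIs) and 5.30 in Y-positive cells (3 against 23 UMIs), and the Ddit4 ratio was 1.14 when 1 more marker was asked of each cell.

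Vegfa, the main angiogenic growth factor, was at 26.2 CPM (WT) against 41.0 CPM (CKO) in stromal-like cells, 1.57-fold higher (1.28 to 1.92), and was at 2.04 against 4.54 CPM in progenitor-like cells. Ndrg1, a stress-response gene, was higher in CKO stromal-like (54.3 against 93.3 CPM, 1.72-fold) and progenitor-like cells (2.77 against 7.27 CPM, 2.62-fold) and 3.81-fold lower in erythroid-like cells (8.14 against 2.14 CPM; 2.23 to 6.73). In progenitor-like cells Ndrg1 rested on 19 against 40 UMIs, and its ratio was 1.18 in Y-positive cells (0.516 to 2.76). P4ha1, a collagen prolyl hydroxylase subunit, was at 164 CPM (WT) against 246 CPM (CKO) in stromal-like cells, at a ratio that missed the 1.5-fold limit by less than the last digit, and reached it in erythroid-like cells (18.2 against 27.3 CPM). Adm (adrenomedullin) stood at 22.8 and 19.2 CPM in stromal-like cells, a ratio of 0.840 (0.655 to 1.08). Adm and Hk2 were the 2 members with a ratio below 1 there.

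The stromal difference was larger in cells with Y-linked RNA. Embryos of both sexes were pooled, so cells with Xist RNA and without Y-linked RNA (Xist-positive) and cells with the reverse (Y-positive) come from different embryos within each library. In Y-positive stromal-like cells (121 WT, 131 CKO) 25 of 31 genes were higher in CKO (background 11.1%), with a median log2 ratio of 0.94 and all 31 ratios above 1. In Xist-positive cells (101 WT, 107 CKO) 4 of 31 were higher (background 8.28%), with a median of 0.26. Those 4 were Slc2a3, Pgk1, Egln3 and Slc16a3, which were also higher in Y-positive cells. Adm, 1 of 31, was lower in Xist-positive cells, against a background of 576 of 9607 genes. The labels give neither the stage of a cell nor how many embryos stand behind each sex, so sex, embryo and stage cannot be told apart.

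The sexes were also compared within each library. Within CKO, 22 of 31 genes were higher in Y-positive than in Xist-positive stromal-like cells (background 7.14%; median log2 ratio 0.84). Within WT, 4 of 30 were (background 3.12%; median 0.20). Bnip3 stood at 31.2 CPM in WT Xist-positive, 47.6 in WT Y-positive, 27.4 in CKO Xist-positive and 158 in CKO Y-positive cells. P4ha1 stood at 142, 187, 142 and 335 CPM and Pdk1 at 21.1, 29.8, 22.3 and 70.2 CPM in the same order. For these 3 genes the CKO Xist-positive cells were at the level of WT cells of the same sex and the CKO Y-positive cells stood apart.

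In some genes the CKO Xist-positive cells also lay above the WT cells. Slc2a3 stood at 35.0 CPM in WT Xist-positive, 28.1 in WT Y-positive, 91.3 in CKO Xist-positive and 117 in CKO Y-positive cells, so both CKO groups lay above both WT groups. Slc16a3 stood at 57.0, 101, 117 and 376 CPM and Egln3 at 1.27, 5.47, 9.03 and 26.5 CPM, and in both the CKO Y-positive cells were the highest. The WT Xist-positive level of Egln3 rests on 3 UMIs, and its ratio there was 7.13 (2.20 to 36.7). Hif1a stood at 43.5, 42.1, 53.2 and 45.0 CPM, with intervals that all overlapped. Epas1 stood at 12.7, 8.55, 19.7 and 19.9 CPM, with overlapping intervals in both CKO groups.

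**Figure D4:**
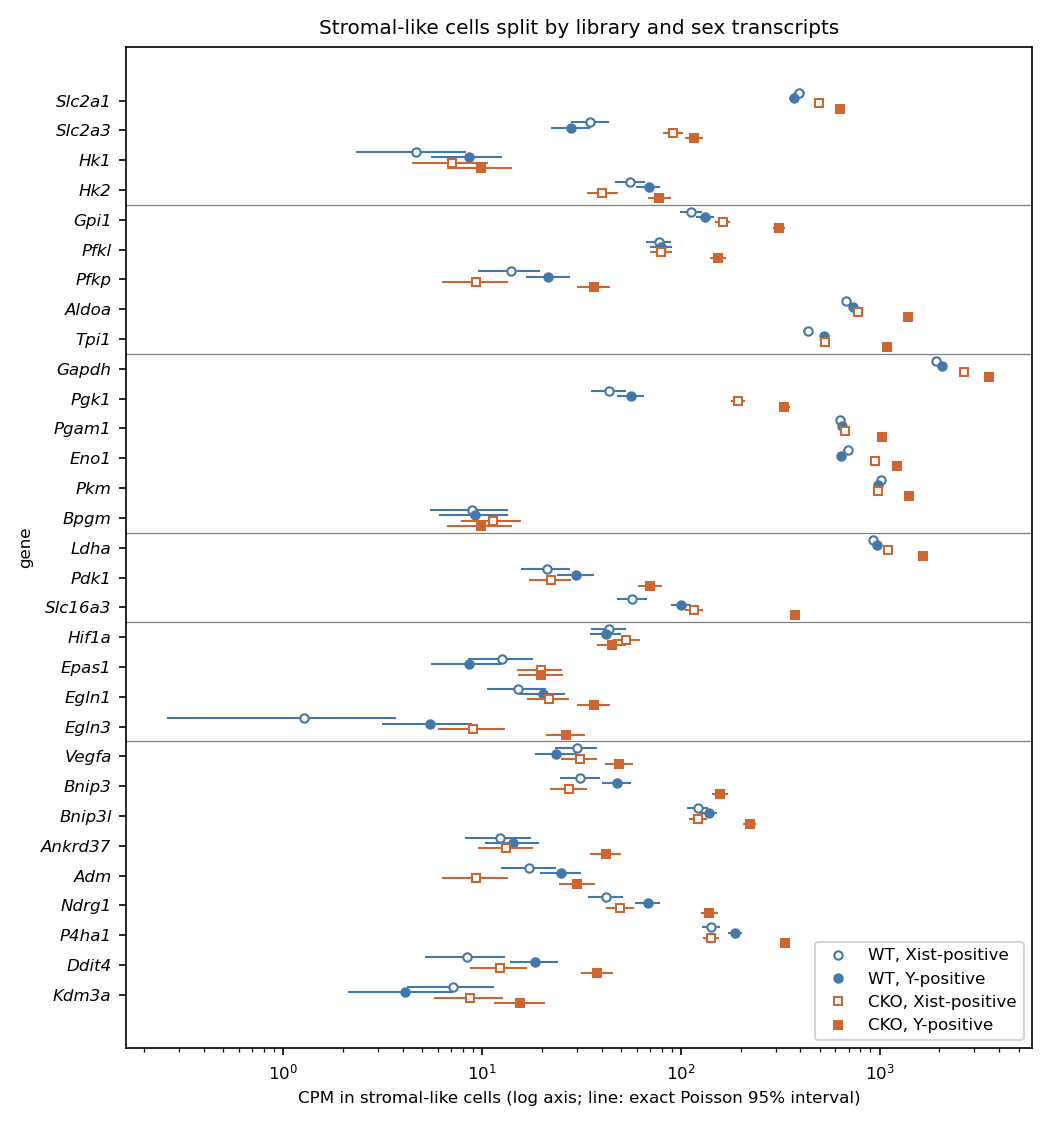
Level of each gene in stromal-like cells (CPM, log axis, lines for exact Poisson 95% intervals) in WT (blue circles) and CKO (orange squares), Xist-positive (open) and Y-positive (filled). For most genes the filled orange square lies to the right of the other 3 points, as for Bnip3 at 158 CPM.

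Cell by cell, the 10 enzymes from Gpi1 to Ldha without Pgk1 summed to a median of 5580 CPM in WT stromal-like cells (quartiles 4482 and 6868) and 8482 CPM in CKO (6644 and 14366). The medians of WT and CKO were 7492 and 8111 CPM in progenitor-like, 2610 and 3583 in erythroid-like and 5078 and 6473 in endothelium-like cells. So the CKO median was above the WT upper quartile in the stroma and in endothelium-like cells and not in the others. For 12 hypoxia genes the medians were 422 and 817 CPM in stromal-like, 284 and 351 in progenitor-like, 238 and 358 in erythroid-like and 381 and 380 in endothelium-like cells. In endothelium-like cells their pooled level was 357 CPM in WT and 494 CPM in the 48 CKO cells, and the 95th percentile over cells was 798 and 1545 CPM. There 24.6% of WT and 22.9% of CKO cells were above the WT upper quartile. So the higher pooled level of this sum came with a higher upper end and not with a higher median.

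Split by sex, these 12 genes (Vegfa, Bnip3, Bnip3l, Egln1, Egln3, Ankrd37, Adm, Ndrg1, P4ha1, Ddit4, Slc16a3 and Kdm3a) summed to a median of 434 CPM in WT Xist-positive, 404 in WT Y-positive, 481 in CKO Xist-positive and 1356 in CKO Y-positive stromal-like cells. The upper quartiles were 571, 650, 930 and 2463 CPM, so the spread as well as the median was widest in the last group. Median depth was 21978, 23726, 27049 and 21506 UMIs, Smarcc1 stood at 97.5, 94.4, 23.6 and 35.4 CPM, and globins took 0.0309%, 0.0358%, 0.238% and 0.235%. Globin shares were alike in both CKO groups, and the median depth of CKO Y-positive cells was near that of the WT groups. Summed stromal markers were 11832 and 11375 CPM in the Xist-positive and 15425 and 15702 CPM in the Y-positive cells, and an Upk3b UMI, the mesothelial marker, was in 71.3%, 62.8%, 59.8% and 67.2% of cells.

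**Figure D5:**
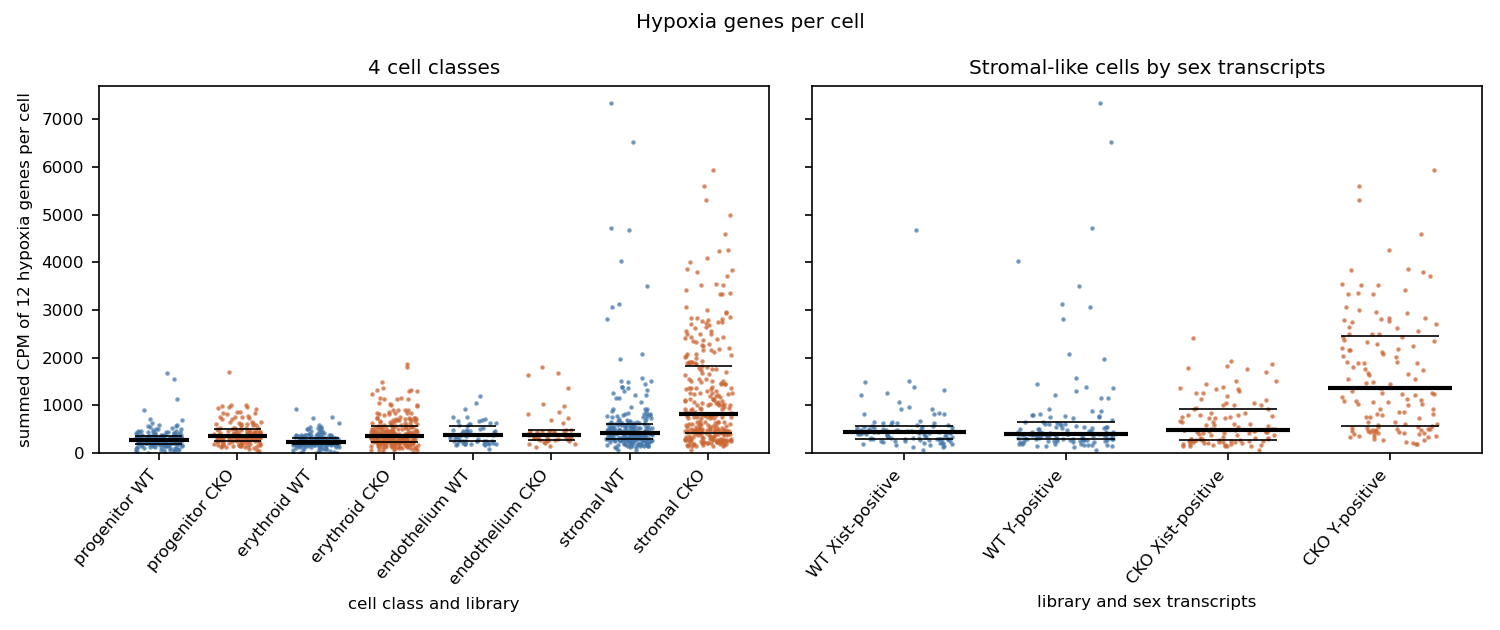
Summed CPM of 12 hypoxia genes in each cell, for WT (blue) and CKO (orange) cells of 4 classes at left and for stromal-like cells split by sex transcripts at right. Thick bars are medians and thin bars quartiles; the median of CKO Y-positive stromal-like cells is 1356 CPM and those of the other 3 groups lie between 404 and 481 CPM.

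The split was of the same direction in progenitor-like cells. There the median log2 ratio was 0.34 in Y-positive cells (67 WT, 82 CKO) and −0.034 in Xist-positive cells (95 WT, 42 CKO). In the latter 2 of 27 were higher (background 12.9%), namely Slc2a1 and Pgk1. Pfkp, Pdk1 and Slc16a3, 3 of 27, were lower, against a background of 625 of 8773 genes. In endothelium-like cells the medians were 0.48 in Y-positive and −0.067 in Xist-positive cells, on 16 to 27 cells a group. In erythroid-like cells the order was the reverse, with 0.12 in Y-positive and 0.37 in Xist-positive cells, beside medians over all genes of −0.23 and 0.13. The per-cell medians of the 12 genes were 364 CPM in CKO Y-positive progenitor-like cells and 277 to 289 CPM in the other 3 groups.

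Split by the Upk3b marker, stromal-like cells showed the difference on both sides, with list medians of 0.58 in positive and 0.71 in negative cells. Egln3 had a ratio of 2.06 in Upk3b-positive and 9.08 in Upk3b-negative cells. CKO cells without a Smarcc1 UMI gave a stromal median of 0.61. In progenitor-like cells with an Mpo UMI and no Klf1 UMI the median was 0.24.

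Other genes of these pathways were followed as lists chosen for their function. Of 38 other HIF targets 32 were measured in stromal-like cells, of which 15 were higher (background 11.2%) and 2 (Angptl4 and Rragd) lower (background 8.42%). Their median log2 ratio was 0.48, against −0.0030 for all genes, and the lower count was near the background. The higher ones included Gys1 (glycogen synthase, 3.72-fold), Hmox1 (haem oxygenase, 3.34-fold) and Ndufa4l2 (a mitochondrial protein, 3.21-fold), and Mif, a cytokine, had a ratio of 1.19. In progenitor-like cells 6 of 26 were higher and 1 lower (backgrounds 15.0% and 8.67%), in erythroid-like cells 6 of 25 and 3 (11.8% and 10.8%), and in endothelium-like cells 3 of 18 and 3 (5.81% and 11.6%), so the lower counts of the last 2 classes were near the background. The medians of these targets in progenitor-like, erythroid-like and endothelium-like cells were −0.037, 0.19 and 0.25, against 0.022, 0.012 and −0.067 for all genes. So in progenitor-like cells their median was not above that of all genes. Angptl4, a lipase inhibitor and a HIF target, was lower in stromal-like (0.600), progenitor-like (0.470) and erythroid-like cells (0.271), opposite to most of the 31 genes.

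Of 20 other glycolysis genes in the files, 3 of 9 measured were higher and 1 lower in progenitor-like cells (backgrounds 15.0% and 8.67%), 4 of 10 and 1 in erythroid-like (11.8% and 10.8%), 1 of 5 and none in endothelium-like (5.81% and 11.6%) and 2 of 10 and 1 in stromal-like cells (11.2% and 8.42%). In stromal-like cells these were Pfkfb3 and Pgm2 higher and Pgm1 lower (Pfkfb3 was named after its values were seen). The median log2 ratio of the measured genes was 0.018 there, with 5 above and 5 below 0, against −0.0030 for all genes. In progenitor-like, erythroid-like and endothelium-like cells the medians were 0.41, 0.53 and 0.62, against 0.022, 0.012 and −0.067 for all genes. In erythroid-like cells Pfkfb4, which raises fructose-2,6-bisphosphate, stood at 9.24 CPM (WT) against 32.7 CPM (CKO) (3.54-fold, 2.67 to 4.76), and Pklr, the red cell pyruvate kinase, at 37.7 and 79.4 CPM (2.11-fold, 1.82 to 2.44). Pgm1 was lower in erythroid-like cells (21.1 against 4.92 CPM), progenitor-like cells (37.5 against 18.7 CPM) and stromal-like cells (14.3 against 8.39 CPM). Pgm2 was higher in progenitor-like, endothelium-like and stromal-like cells.

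Of 13 measured genes of lactate and pyruvate fate 1 was higher and 1 lower in stromal-like cells, near the background of 11.2% and 8.42%. The higher one, Bsg (basigin), the chaperone that carries MCT4 to the membrane, was at 836 CPM (WT) against 1718 CPM (CKO) in stromal-like cells (2.06-fold, 1.99 to 2.13), in the class where Slc16a3 was higher. Its ratios in the other classes were between 1.02 and 1.29. Ldhb was the lower one (40.3 against 23.1 CPM). The pentose phosphate pathway, which branches from glycolysis, had no higher gene among its 7 members in any of the 4 classes, where the background of 5.81% to 15.0% gives few or none of 7, and Rpia in progenitor-like and Taldo1 in stromal-like cells were lower. Among HIF regulators Arnt, the partner of the alpha subunits, was 1.83-fold higher in progenitor-like and 2.36-fold in erythroid-like cells, and Vhl, the ligase subunit that removes them, 1.61-fold and 1.92-fold. Hif3a, another alpha subunit, was also higher in both, so 3 of 10 measured regulators were higher in each of these classes (backgrounds 15.0% and 11.8%). In stromal-like cells 1 of 10 (Hif1an) was higher, near the background of 11.2%. In endothelium-like cells 0 of 10 were higher (background 5.81%) and 1 (Crebbp) was lower (background 11.6%).

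In the classes with few cells in a library, levels alone are given. Slc2a3 stood at 42.2 CPM in the 13 WT and 440 CPM in the 53 CKO megakaryocyte-like cells, with intervals of 27.5 to 61.8 and 407 to 476 CPM. Megakaryocyte markers summed to 2326 CPM in WT and 12447 CPM in CKO, so the groups differ in marker content. Bnip3 stood at 40.6 and 35.5 CPM in the same cells, and Slc2a1 at 43.8 and 117 CPM. In the 49 WT and 15 CKO macrophage-like cells Slc16a3 stood at 97.3 and 169 CPM and Eno1 at 888 and 1146 CPM. Smarcc1 stood at 82.6 and 84.9 CPM in these cells, so it was not lower in CKO. Of the WT cells 19 were Xist-positive and 24 Y-positive, and of the CKO cells 1 and 14. Sex and library therefore cannot be told apart in this class. Globins took 1.16% of the UMIs of CKO megakaryocyte-like cells against 0.0342% in WT, and the part of free or shared RNA in these levels was not tested.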

How the data were processed

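Cells of mouse yolk sac were measured by 10x 5′ single-cell RNA sequencing, with 1 WT and 1 Baf155 CKO library. The authors deposited whole-number UMI counts per gene and cell; Cell Ranger, GRCm38 and Seurat are named, without versions, per the submitters' processing notes. Cells with at most 10% mitochondrial UMIs and at least 500 genes were kept, and doublets called by Scrublet (expected rate 1%; 3 WT and 6 CKO cells) were removed with scanpy 1.11.5 on Python 3.11.15. Classes were set by detected markers: at least 5 erythroid, 8 megakaryocyte, 5 macrophage, 9 endothelial, 7 stromal, 5 visceral endoderm or, in cells passing no other gate, 5 progenitor markers. Cells passing the gates of 2 classes (5 WT, 10 CKO) or none (37 and 21) were left out. These minimums were set after the cells were seen. Counts were summed per class, given as CPM with exact Poisson intervals, and compared as ratios with exact conditional binomial intervals (scipy 1.17.1). UMIs of 1 cell are not independent, so these 95% intervals cover counting error only. Log2 ratios had 0.5 CPM added. The procedure was checked on simulated counts. The 31 genes, the lists and the rule for named genes were chosen with earlier results of these data known. That rule named, per class, up to 8 genes with the largest ratios among those with at least 100 UMIs and a UMI in 10% of cells, and all 31 genes were accounted for. In all, 16 planned and 3 added alternatives were run.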

Additional observations from a re-analysis of the deposited data

Results flagged for a closer look

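Ndrg1 differed in direction between classes: its CKO over WT ratio was 2.62 in progenitor-like and 1.72 in stromal-like cells but 0.263 in erythroid-like cells. In Y-positive cells these calls were lost in progenitor-like (1.18, 0.516 to 2.76) and erythroid-like cells (0.389, 0.127 to 1.01). Epas1 had a ratio of 1.81 in stromal-like cells and 0.454 in endothelium-like cells. Slc16a3 in endothelium-like cells had a ratio of 0.250 in Xist-positive and 4.84 in Y-positive cells, on 16 to 27 cells a group. With 1 library per genotype these differences between classes and sexes were not tested.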

How the results depend on the processing

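No paired analysis was possible because each genotype had 1 library. No result has a replicate, so the intervals understate the error, and genes with few UMIs in endothelium-like cells are limited by depth. Of 134 summaries recomputed under 16 planned and 3 added alternatives (the Mpo and Upk3b splits, chosen after seeing the data), 97 moved by less than their counting interval, and of 1917 ratios of single genes 1649 did. For list medians the interval used was that of the middle gene. Another UMI minimum or another amount of added CPM cannot change a single-gene or summed ratio. So part of these counts was fixed in advance, and they do not measure stability. Causes were not tested.

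In Xist-positive cells the list medians (log2) were 0.26 in the stromal-like class, -0.034 in the progenitor-like class and -0.067 in the endothelium-like class, the last 2 reversed. Reversed there too were Slc2a3 (0.909 in progenitor-like, 0.673 in endothelium-like), Kdm3a (0.732, progenitor-like) and Bnip3 (0.878, stromal-like). The genes called higher then numbered 2 of 27 in progenitor-like cells (background 12.9%), 4 of 22 in endothelium-like cells (5.79%) and 4 of 31 in stromal-like cells (8.28%). With at least 100 UMIs asked, the progenitor-like median was 0.17, with 4 of 24 genes higher against 12.0% of all genes, and 5 of 17 were higher in endothelium-like cells against 6.39%. In CKO cells without a Smarcc1 UMI 5 of 26 were higher in endothelium-like cells against 5.44%.

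The summed ratio of the list in progenitor-like cells (1.13) was 1.18 outside globin, mitochondrial and ribosomal genes, 1.16 as a mean per cell, 1.18 thinned to 10000 UMIs, 1.11 relative to the median gene, 1.11 without Pgk1, 1.02 in Xist-positive and 1.16 in Y-positive cells, 1.10 without Smarcc1 UMIs and 1.16 in Mpo-positive, Klf1-negative cells. In erythroid-like cells (1.16) it was 1.28 with stricter and 1.19 with looser gates and 1.18 at 5% mitochondrial UMIs. Outside globin, mitochondrial and ribosomal genes it was 1.19, per cell 1.24, thinned 1.27 and without Pgk1 1.12. It was 1.19 Xist-positive, 1.07 Y-positive and 1.13 without Smarcc1 UMIs. In endothelium-like cells (1.37) it was 1.33 with stricter gates and 1.42 outside globin, mitochondrial and ribosomal genes. Relative to the median gene it was 1.44, and it was 1.13 Xist-positive and 1.29 without Smarcc1 UMIs. In stromal-like cells (1.55) it was 1.57 outside globin, mitochondrial and ribosomal genes, 1.68 per cell, 1.68 thinned and 1.52 without Pgk1. It was 1.24 Xist-positive, 1.81 Y-positive, 1.49 without Smarcc1 UMIs, 1.51 Upk3b-positive and 1.62 Upk3b-negative.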
